A study of Mus musculus with 2 samples.

Results

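Of the 8930 genes listed for both of 2 single-cell libraries of newborn mouse kidney, 8 encode the chemokines and adhesion molecules described here: the ligands Cxcl1, Cxcl2, Cxcl10, Cxcl12, Cxcl14 and Ccl2, the receptor Cxcr4 and the adhesion molecule Vcam1. They were picked by name, with levels from the same libraries already known, so their levels are given as a description and carry no test. All 8 are listed in both libraries, in lower case (cxcl1, cxcl2, cxcl10, cxcl12, cxcl14, cxcr4, ccl2 and vcam1). The exposed library came from kidney of mice exposed to maternal diabetes and the control library from control mice, both of strain C57BL/6J at postnatal day 2. The labels name 1 kidney, dissociated with trypsin and frozen as a cell suspension. They do not say how diabetes was brought about in the dams, nor how many animals gave each library. With 1 library per group, the exposure, the animal and the library cannot be told apart, and no difference has a replicate check.

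Chemokines are small secreted proteins that guide cells along a gradient, and each is read by G protein-coupled receptors on the responding cell. Cxcl1 and Cxcl2 draw neutrophils through Cxcr2, Ccl2 draws monocytes through Ccr2, and Cxcl10, induced by interferons, draws T cells through Cxcr3. Cxcl12 signals through Cxcr4 and is also taken up by the scavenging receptor Ackr3, and in the developing mouse kidney this ligand and Cxcr4 are needed for the normal growth of the glomerular vessels. Cxcl14 is a chemokine of epithelia and stroma. Vcam1 is a cell surface protein that holds leukocytes by their integrin alpha 4 beta 1, built from Itga4 and Itgb1.

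Cxcl1 and Cxcl2 are neighbouring genes on chromosome 5 of mm10, at chr5:90891241-90893115 and chr5:90903871-90905938, both on the plus strand, and Cxcl10 lies on the minus strand of the same chromosome at chr5:92346638-92348889. Cxcl1, Cxcl2 and Cxcl10 were read in the same cells more often than among all cells of their class, with values given below. How often Cxcl14 was read with them is not given here. The stretches from 250 to 41 bases before the start of these 4 ligand genes are shown. They come from RefSeq's table of mouse promoters on GRCm38.p6, which holds 6 of the 8 genes; Ccl2 and Vcam1 are the others. Capitals mark exact matches to GGGAATTTC, letters of the NF-kappaB type, or to GAAANNGAA, letters of the interferon-stimulated response element, searched on both strands of the 250 bases before the start.
Cxcl1, chr5:90890995-90891204, plus strand: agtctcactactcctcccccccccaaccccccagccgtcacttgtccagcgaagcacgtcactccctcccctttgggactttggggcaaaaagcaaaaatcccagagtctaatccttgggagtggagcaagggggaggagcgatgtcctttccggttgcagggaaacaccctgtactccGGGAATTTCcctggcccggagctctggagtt
Cxcl2, chr5:90903649-90903858, plus strand: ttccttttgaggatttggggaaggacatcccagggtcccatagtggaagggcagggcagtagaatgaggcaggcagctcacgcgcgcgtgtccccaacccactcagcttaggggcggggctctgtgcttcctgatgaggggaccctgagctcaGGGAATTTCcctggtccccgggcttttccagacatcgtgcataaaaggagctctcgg
Cxcl10, chr5:92348930-92349139, minus strand: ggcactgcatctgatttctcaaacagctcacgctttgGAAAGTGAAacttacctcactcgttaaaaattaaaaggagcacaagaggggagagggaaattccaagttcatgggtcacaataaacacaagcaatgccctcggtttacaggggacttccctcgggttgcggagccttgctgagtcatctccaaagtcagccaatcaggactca
Cxcl14, chr13:56296592-56296801, minus strand: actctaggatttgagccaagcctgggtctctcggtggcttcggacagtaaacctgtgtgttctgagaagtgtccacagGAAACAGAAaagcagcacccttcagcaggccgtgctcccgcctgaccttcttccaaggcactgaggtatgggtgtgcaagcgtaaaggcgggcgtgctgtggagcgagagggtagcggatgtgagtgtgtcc
Distances are from the start RefSeq gives, which for Cxcl1 and Cxcl2 lies downstream of the first base of the coordinates above. The NF-kappaB type letters stood 71 to 63 bases before the start of Cxcl1 and 97 to 89 bases before that of Cxcl2. They lie inside a run of 14 letters that the Cxcl1 and Cxcl2 stretches share. Of 32851 promoters of the same length in the table, 0.234% hold GGGAATTTC. The letters GAAANNGAA stood 213 to 205 bases before the start of Cxcl10 and 172 to 164 bases before that of Cxcl14, and 7.13% of the promoters hold them. The upstream stretches of Cxcl12 and Cxcr4 held neither. The matches describe letters only. Other forms of these sites were not searched, so lower case does not mean that none is present.

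The exposed library held 5494 cells and 28381167 unique molecular identifiers (UMIs, which count captured transcripts), with a median of 4251.5 UMIs per cell, and the control library held 9071 cells and 39442253 UMIs, with a median of 3453. The authors' 10 clusters per library were named from marker genes. This gave podocytes (254 exposed and 354 control cells), endothelium (491 and 710), macrophages (117 and 181), stroma (1614 and 2670), proximal tubule (322 and 619), a large cluster of nephron progenitors and differentiating nephron called nephrogenic here (1963 and 3335), and distal tubule and collecting duct (565 and 629). The nephrogenic cluster also held most cells with ureteric bud and collecting duct markers, 264 of 360 exposed and 604 of 703 control cells. A cluster led by mitochondrial genes stayed unnamed (168 and 573 cells). The names rest on 10 to 14 detected markers in the largest cluster of each class, and the macrophage cluster also held 4 neutrophil markers in the exposed library and 3 in the control library. Levels of the distal class are given within each library only, since its control cluster carried more intercalated cell markers than distal ones among its leading genes. The libraries shared 14 cell barcodes.

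The level of a gene in a class is its summed UMIs per 1000000 UMIs of that class (CPM), over the genes listed for both libraries, and every 95% interval below is exact and covers counting error only. For 6 of the 8 genes the class with the highest level was the same in both libraries: podocytes for Cxcl12, and macrophages for Cxcl2, Cxcl10, Cxcr4, Ccl2 and Vcam1. Cxcl14 was highest in the nephrogenic class of the exposed library (55.4 CPM) and in stroma of the control library (59.3 CPM, against 54.3 CPM in its nephrogenic class). Cxcl1 was highest in exposed macrophages (174 CPM) and in control stroma (87.6 CPM). Over all cells, the exposed and control levels of Cxcl1 were 33.4 and 33.6 CPM, of Cxcl12 117 and 120 CPM, of Cxcl14 36.3 and 39.9 CPM, and of Cxcr4 12.3 and 12.5 CPM. The levels of Cxcl2 were 26.3 CPM in the exposed and 16.0 CPM in the control library, a ratio of 1.64 (1.48 to 1.83). Those of Cxcl10, Ccl2 and Vcam1 stood at ratios of 1.41 (1.26 to 1.58), 1.38 (1.21 to 1.57) and 1.36 (1.20 to 1.54). With 10 CPM added to both libraries, the setting used for every call, none of the 8 genes reached 1.5-fold over all cells, where 0.0672% of 8927 genes with at least 50 UMIs were higher and 0.168% lower in the exposed library.

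**Figure D1:**
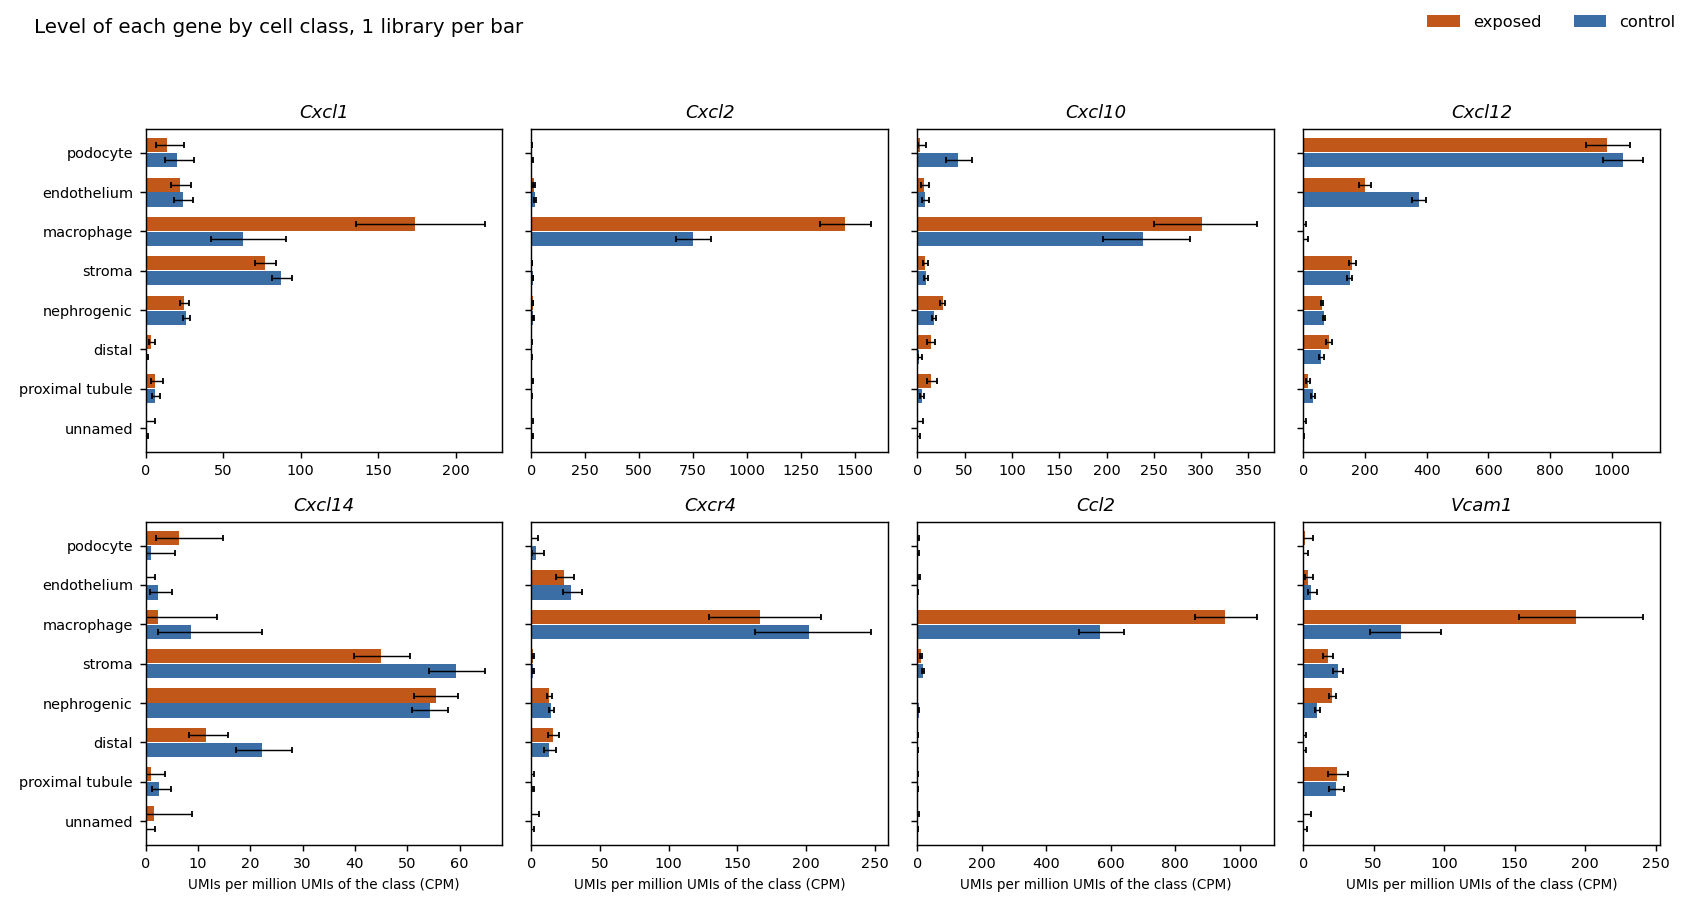
Bars give the level of each gene (x axis, CPM, a scale of its own per panel) in each cell class (y axis), the exposed library above the control library, and error bars are exact 95% Poisson intervals, which cover counting error only. Cxcl12 stands at 985 and 1035 CPM in podocytes, while Cxcl2, Ccl2, Cxcr4 and Vcam1 have their longest bars in macrophages; distal and unnamed bars are not compared between libraries.

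Podocytes, the epithelial cells that wrap the glomerular capillaries, had the highest Cxcl12 level of the named classes. The level was 985 CPM in exposed podocytes (777 UMIs) and 1035 CPM in control podocytes (1019 UMIs), a ratio of 0.952 (0.866 to 1.05). A Cxcl12 UMI was present in 65.4% of exposed podocytes (59.1 to 71.2) and 61.9% of control podocytes (56.6 to 66.9). In cells thinned to 2000 UMIs the shares were 59.2% and 63.7%, in the opposite order. Macrophages, which had a median of 3069 UMIs in the exposed and 2361 in the control library, gave the background: 0 of 117 exposed macrophages, which allows a share of cells with a UMI of up to 2.56%, and 1 of 181 control macrophages held a Cxcl12 UMI. Podocyte medians were 2600.5 UMIs in the exposed and 2128.5 in the control library.

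The other Cxcl12 sources were weaker per UMI but larger in cells. In stroma the levels were 160 CPM in the exposed and 150 CPM in the control library, with 26.8% and 21.7% of cells holding a UMI (19.4% and 15.3% after thinning). The nephrogenic class stood at 61.1 CPM in the exposed and 66.6 CPM in the control library. Stroma held 29.7% of all Cxcl12 UMIs of the exposed library and 25.6% of those of the control library, and podocytes held 23.6% and 21.7%. Among cells classed by their own markers, a grouping chosen after the data were seen, those of the loop of Henle and distal tubule stood at 155 CPM in the exposed and 151 CPM in the control library, and nephron progenitors at 55.4 and 49.0 CPM.

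The receptors of Cxcl12 had different leading cells. Ackr3, the scavenging receptor, was high in the same podocytes: 875 CPM in the exposed and 846 CPM in the control library, with a UMI in 83.5% and 77.1% of cells (77.2% and 71.6% after thinning). Cxcr4, the signalling receptor, had 0 UMIs in exposed podocytes and 3 UMIs in control podocytes. Its level was highest in macrophages, with 166 CPM in the exposed and 202 CPM in the control library, where 30.8% and 24.3% of cells held a UMI (21 of 90 exposed and 25 of 125 control cells after thinning). Stromal cells with a Cxcr4 UMI made up 0.31% of the exposed and 0.30% of the control class and gave the background. The nephrogenic class held most Cxcr4 UMIs, 47.7% in the exposed and 54.6% in the control library, at 13.1 and 14.6 CPM. Macrophages in turn held 0 Ackr3 UMIs in the exposed and 1 in the control library. The libraries had the same order of classes for Cxcr4 down to endothelium (23.7 CPM exposed, 29.1 CPM control), and below it the distal and nephrogenic levels overlapped in their intervals.

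**Figure D2:**
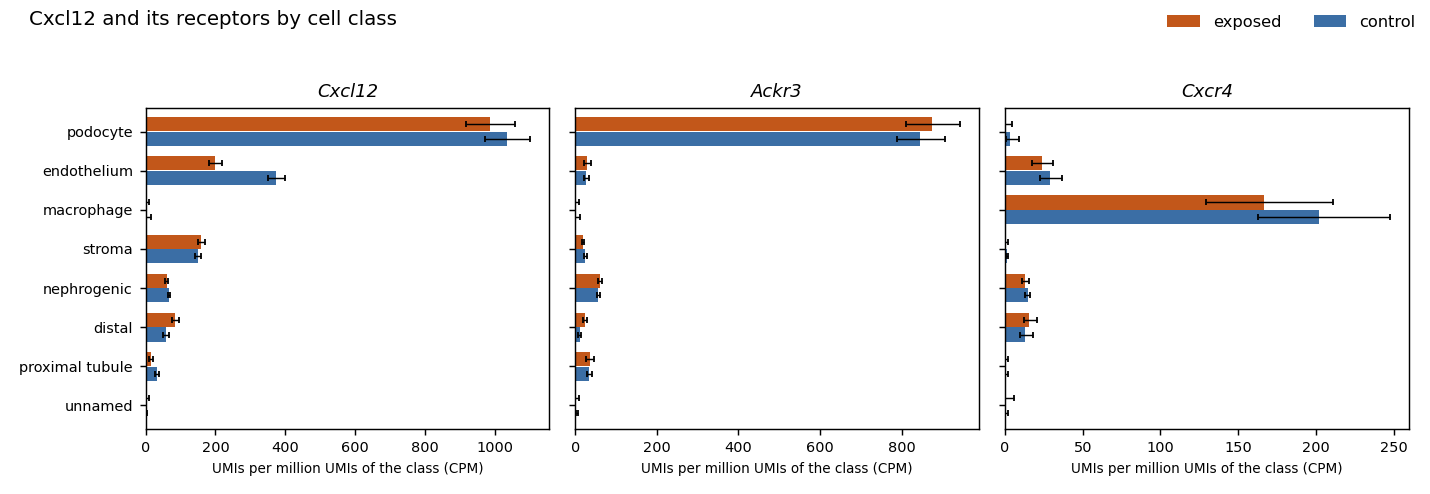
Levels of the ligand Cxcl12 and its receptors Ackr3 and Cxcr4 (x axes, CPM) by cell class (y axis), the exposed library above the control library, with exact 95% Poisson intervals that cover counting error only. Podocytes hold the longest bars of Cxcl12 and of Ackr3 (875 and 846 CPM) and 0 and 3 UMIs of Cxcr4, whose longest bars are those of macrophages (166 and 202 CPM).

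With 10 CPM added, Cxcl12 differed most between the libraries in endothelium. It stood at 199 CPM in the exposed library (428 UMIs in 56 cells) and 374 CPM in the control library (953 UMIs in 106 cells), a ratio of 0.531 (0.473 to 0.596). Of the 4 genes with at least 50 UMIs in endothelium, Cxcl12 was the only gene past 1.5-fold, lower in the exposed library, where 0.854% of 7023 genes were lower. The size rested on how cells were weighted and classed. The log2 ratio with 10 CPM added was -0.88, and -0.67 without the 5 cells of each library with most Cxcl12 UMIs. It was no longer past 1.5-fold in thinned cells (-0.34), as a mean over cells (-0.11) or in cells classed by their own markers (-0.57, and -0.41 with at least 3 marker UMIs). The grouping with at least 3 marker UMIs moved 13 exposed and 28 control cells of the endothelial clusters to the neural and Schwann group. That group had Cxcl12 at 815 CPM in the exposed and 1084 CPM in the control library (162 and 538 UMIs). Its marker Stmn2 was itself read in the endothelial class, at 54.4 CPM in the exposed and 126 CPM in the control library (117 and 320 UMIs). Whether the moved cells are neural or endothelial was not tested. The 5 cells with most Cxcl12 UMIs were all endothelial in the control library, with 42 to 96 UMIs each. In the exposed library 3 of 5 were endothelial, with 26 to 44 UMIs.

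Endothelial Cxcl12 sat in few cells. Cells with UMIs of at least 2 of the arterial genes Gja4, Gja5, Fbln5, Hey1 and Jag1, a list chosen after these values were seen, numbered 59 of 491 in the exposed and 92 of 710 in the control library. They held 88.3% of the endothelial Cxcl12 UMIs of the exposed and 85.4% of those of the control library, at 995 and 1567 CPM, against 28.2 and 68.6 CPM in the remaining endothelial cells. They also held 54.9% and 71.6% of the endothelial Cxcr4 UMIs. Of these arterial genes, Gja4, a gap junction protein, was at 125 CPM in the exposed and 196 CPM in the control endothelium, and Fbln5, an elastic fibre protein, was at 94.8 and 148 CPM. Jag1, a Notch ligand, was at 44.6 and 71.9 CPM, whereas Gja5 was at 25.1 and 17.3 CPM and Hey1 at 33.0 and 37.3 CPM. Plvap, of fenestrated capillaries, was at 1895 CPM in the exposed and 1652 CPM in the control endothelium. The part of these genes in the Cxcl12 difference was not tested.

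Macrophages, the tissue's resident phagocytes, held the highest levels of Cxcl2, Ccl2, Cxcl10 and Vcam1 in both libraries. Of the 6 genes with at least 50 UMIs there, Cxcl2, Ccl2, Cxcl1 and Vcam1 were past 1.5-fold and higher in the exposed library. In this small class 7.23% of 2212 genes were higher and 3.35% lower by the same rule. Cxcl2 stood at 1454 CPM in exposed macrophages (1339 to 1575) and 747 CPM in control macrophages (670 to 830), a ratio of 1.95 (1.70 to 2.23). A Cxcl2 UMI was present in 38 of 117 exposed and 37 of 181 control cells, which is 32.5% and 20.4%, and in 36.7% and 17.6% after thinning. Podocytes gave the background, with 0% in the exposed and 0.85% in the control library. The 5 exposed macrophages with most Cxcl2 held 35 to 52 UMIs each and the 5 control macrophages 20 to 68. Without them the levels were 1018 and 379 CPM. Exposed macrophages thus had more Cxcl2 both with and without those cells.

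Ccl2 did not share that spread over cells. It stood at 954 CPM in exposed and 567 CPM in control macrophages, a ratio of 1.68 (1.44 to 1.98), with UMIs in 33 exposed and 37 control cells, which is 28.2% and 20.4%. Nephrogenic cells, with 0.05% and 0.24%, gave its background. The log2 ratio was 0.74, and 0.57, no longer past 1.5-fold, as a mean over cells. Among cells of all clusters with macrophage markers, the ratio was 1.51 (1.30 to 1.76, from 390 and 321 UMIs). A single exposed cell held 168 UMIs and the next 75, whereas the highest control macrophages held 40 and 37. Without the 5 cells of each library with most Ccl2 the order turned, to 205 CPM in exposed and 281 CPM in control macrophages. Ccr2, the receptor of Ccl2, was lower in the exposed class, at 48.9 CPM against 141 CPM in control macrophages (20 and 65 UMIs), a ratio of 0.347 (0.199 to 0.58).

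Cxcl1 in macrophages rested on 5 exposed and 6 control cells. Its level was 174 CPM in the exposed and 63.0 CPM in the control class, a ratio of 2.76 (1.77 to 4.41). The exposed cells held 28, 21, 17, 3 and 2 UMIs. The control cells held 8, 8, 6, 4, 2 and 1. Without the 5 cells of each library with most Cxcl1 UMIs in all classes, the levels were 55.5 CPM in the exposed and 63.0 CPM in the control class. Of those cells 2 were macrophages in the exposed library and 0 in the control library, so UMIs were taken from the exposed class only.

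Vcam1 differed more than Cxcl10. Vcam1 stood at 193 CPM in exposed and 69.5 CPM in control macrophages, a ratio of 2.78 (1.82 to 4.34), in 23.1% and 12.2% of cells (15.6% and 10.4% after thinning). Podocytes, with 0.39% and 0% of cells, gave its background. The highest exposed macrophages held 13, 10 and 7 Vcam1 UMIs and the highest control macrophages 4, 3 and 3. Cxcl10 stood at 301 CPM in exposed and 239 CPM in control macrophages, a ratio of 1.26 (0.966 to 1.65), and a UMI was present in 16.2% and 7.73% of cells, against 0.79% and 1.13% of podocytes. A single control cell held 55 of the 110 control UMIs. The 5 highest macrophages held 74 of the 123 exposed and 95 of the 110 control UMIs. The log2 ratio of Cxcl10 was 0.32, but -0.026 as a mean over cells and 1.62 in thinned cells, so its direction depended on the weight of cells. The integrin subunit Itga4, the partner of Vcam1, was at 88.1 CPM in exposed and 95.5 CPM in control macrophages.

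**Figure D3:**
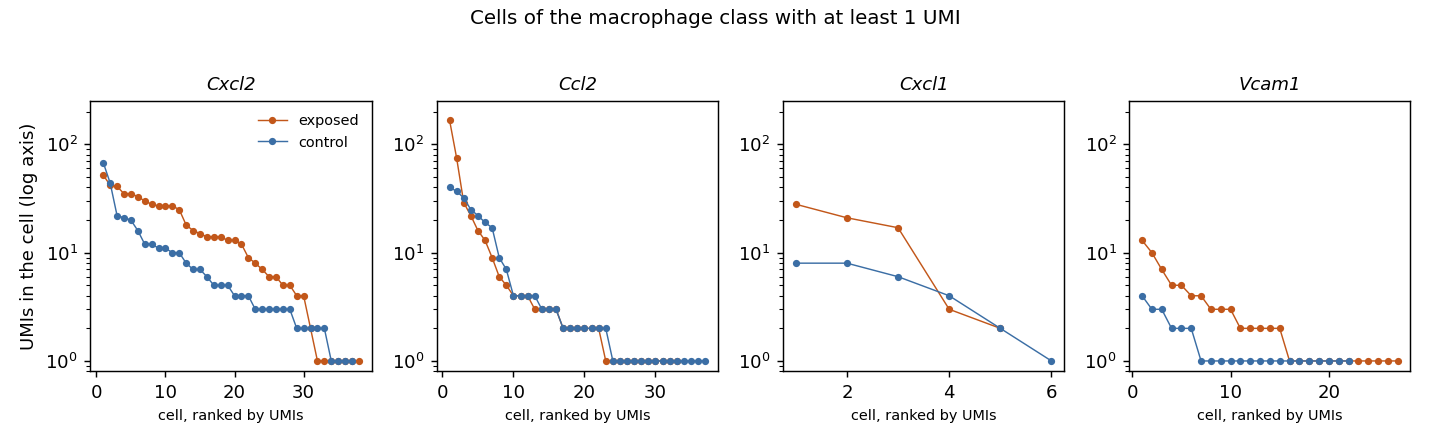
Each point is a cell of the macrophage class with at least 1 UMI of the gene, ranked by its UMIs (x axis) with the UMIs on a log axis (y axis), exposed and control cells in separate colours. The exposed Cxcl2 curve runs above the control curve over most ranks, whereas for Ccl2 the exposed curve is higher at the first 2 cells (168 and 75 UMIs) and close to the control curve or below it after them.

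Neutrophils were part of this class in both libraries and, being few, held a small part of its Cxcl2 UMIs. By their own markers, 13 exposed and 23 control cells of the class were neutrophils, with S100a8 at 82796 and 83560 CPM, and 101 exposed and 153 control cells were macrophages. Neutrophils held 28 of the 594 exposed and 33 of the 344 control Cxcl2 UMIs of the class, and 0 UMIs of Ccl2, Cxcl1 and Vcam1 in both libraries. Their Cxcl2 level was not low, at 1043 CPM in the exposed and 829 CPM in the control library. Their Cxcr4 level was 261 and 276 CPM (7 and 11 UMIs), against 166 and 188 CPM in the cells with macrophage markers. In the cells with macrophage markers, Cxcl2 stood at 1490 CPM in the exposed and 759 CPM in the control library, Ccl2 at 1055 and 623 CPM, and Vcam1 at 215 and 78.1 CPM. C1qa, a complement gene of resident macrophages, was at 4393 CPM in the exposed and 3897 CPM in the control cells, and S100a8 was at 209 and 754 CPM in them (77 and 309 UMIs). The part of S100a8-holding cells in the difference of Ccr2 was not tested.

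In the nephrogenic class, Vcam1 was the only one of the 8 genes past 1.5-fold, higher in the exposed library, where 0.208% of 8648 genes were higher. Its level was 20.6 CPM in the exposed library (259 UMIs in 126 cells) and 10.2 CPM in the control library (187 UMIs in 122 cells), a ratio of 2.03 (1.67 to 2.46). The share of cells with a Vcam1 UMI was 6.42% in the exposed and 3.66% in the control library, and 2.62% and 1.57% after thinning. The 5 highest cells of the class held 15.8% of its UMIs in the exposed and 13.4% in the control class. The call was close to its limit: the log2 ratio was 0.60, and it was no longer past 1.5-fold in thinned cells (0.38), as a mean over cells (0.55), without the 5 cells of each whole library with most Vcam1 (0.57) or with classes called by markers (0.48, and 0.53 with at least 3 marker UMIs). Among all cells classed by their own markers, differentiating nephron cells had 35.5 CPM of Vcam1 in the exposed and 17.2 CPM in the control library, while nephron progenitors had 1 and 20 UMIs. The make-up of the class differed: 33.9% of its exposed and 25.6% of its control cells carried differentiating nephron markers, and 13.4% and 18.1% those of ureteric bud and collecting duct. Its control cluster had Aqp2, the collecting duct water channel, among its leading genes. The part of this make-up in the class level was not tested. The ratio in differentiating nephron cells of all clusters was 2.06 (1.58 to 2.70).

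Cxcl10 in the nephrogenic class stood at 26.8 CPM in the exposed and 17.8 CPM in the control library, a ratio of 1.502 (1.29 to 1.75). The log2 ratio was 0.40 at full depth and 0.18 in thinned cells. It was also 0.18 without the 5 cells of each library with most Cxcl10 UMIs, and 0.15 as a mean over cells. The 5 highest cells of the class held 38.6% of its Cxcl10 UMIs in the exposed and 22.9% in the control library. The shares of cells were 4.02% and 3.81%. In cells with differentiating nephron markers Cxcl10 was at 32.1 CPM in the exposed and 15.4 CPM in the control library (152 and 79 UMIs). The ratio was 2.08 (1.57 to 2.76), and the part of single cells in it was not tested. Cxcl14 stood at 55.4 CPM in the exposed and 54.3 CPM in the control library (ratio 1.02, 0.925 to 1.13), with a UMI in 15.5% and 13.5% of cells, against a background of 0% and 0.28% in endothelium. Cells with ureteric bud and collecting duct markers had the highest Cxcl14 levels, 98.4 CPM in the exposed and 124 CPM in the control library, followed by differentiating nephron cells with 73.5 and 78.2 CPM. Nephron progenitors stood lower, at 16.8 and 14.4 CPM. Ccl2 had 1 UMI in the exposed nephrogenic class and 70 UMIs in 8 cells of the control class, of which 1 cell held 53. In all control clusters, cells with nephron progenitor, differentiating nephron, and ureteric bud and collecting duct markers held 5, 2 and 1 Ccl2 UMIs. Cells with macrophage markers numbered 8 in the exposed and 11 in the control nephrogenic class. Their part in the 70 UMIs was not tested. Cells grouped by their own markers also gave ratios past 1.5-fold and lower in the exposed library. With podocyte markers these were 0.479 (0.241 to 0.9) for Cxcl10 (14 and 40 UMIs) and 0.518 (0.323 to 0.81) for Cxcl1. A single cell of the control podocyte cluster held 33 Cxcl10 UMIs, and its part in that Cxcl10 ratio was not tested. With ureteric bud and collecting duct markers the ratios were 0.578 (0.429 to 0.771) for Cxcl1 and 0.414 (0.258 to 0.643) for Cxcl2. Cxcl1 went the other way in cells with differentiating nephron markers, at 1.70 (1.34 to 2.15, from 190 and 121 UMIs). Cxcl10 did so in cells with loop of Henle and distal tubule markers, at 1.97 (1.21 to 3.26). Neither of these higher ratios was past 1.5-fold with 10 CPM added. Shares over all genes were not computed for the marker groups.

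Stroma, the interstitial and mesangial support cells, held the most Cxcl1 UMIs, 50.2% in the exposed and 53.1% in the control library. None of the 7 genes with at least 50 UMIs in stroma was past 1.5-fold, where 0.432% of 7874 genes were past it in either direction. Cxcl1 stood at 77.1 CPM in exposed and 87.6 CPM in control stroma, a ratio of 0.881 (0.782 to 0.991), in 9.23% and 11.8% of cells (6.98% and 9.70% after thinning). The share was 2.17% and 1.78% in the proximal tubule class, and 0.53% and 0.20% in the largest distal cluster of each library. The proximal tubule class had Cxcl1 at 6.32 CPM in the exposed and 6.33 CPM in the control library (12 and 22 UMIs). Cells of all clusters with proximal tubule markers had 32.2 and 25.3 CPM (87 and 106 UMIs). Neither group is taken as a background free of Cxcl1. Cxcl14 stood at 44.9 CPM in exposed and 59.3 CPM in control stroma, a ratio of 0.757 (0.65 to 0.88). Vcam1 stood at 17.5 and 24.4 CPM and Ccl2 at 10.8 and 16.6 CPM, with ratios of 0.718 (0.561 to 0.913) and 0.649 (0.476 to 0.878). These 4 ratios lay below 1 in stroma, as did those of Cxcl2 and Cxcl10, whereas that of Cxcl12 was 1.06 (0.976 to 1.16). Cxcl2 was low, with 15 UMIs in exposed and 56 in control stroma, a ratio of 0.350 (0.184 to 0.628). It was not past 1.5-fold there with 10 CPM added. The ratio of Cxcl10 was 0.914 (0.626 to 1.32). Cxcl14 in cells with pericyte, smooth muscle and renin cell markers was at 27.6 CPM in the exposed and 54.7 CPM in the control library, a ratio of 0.504 (0.378 to 0.667), and in cells with other stromal markers at 55.1 and 61.1 CPM. Itga4 had most of its UMIs in stroma, 64.2% in the exposed and 51.6% in the control library, at 22.5 and 15.7 CPM. The other integrin subunit, Itgb1, was at 263 CPM over all exposed and 251 CPM over all control cells.

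The proximal tubule, which reclaims filtered solutes, held 2 of the genes at 50 UMIs or more. Vcam1 stood at 23.7 CPM in the exposed and 23.0 CPM in the control library, in 9.01% and 9.37% of cells. The class pooled 2 clusters per library. One, of 148 cells in each, had a median of 62.7% mitochondrial UMIs in the exposed and 60.4% in the control library. A Vcam1 UMI was in 2.70% and 2.03% of its cells, against 14.4% of 174 exposed and 11.7% of 471 control cells of the other cluster. Over the whole class, Cxcl12 was at 15.3 CPM (29 UMIs) in the exposed and 32.0 CPM (111 UMIs) in the control library, a ratio of 0.478 (0.306 to 0.725). It was the only one of the 2 genes with at least 50 UMIs past 1.5-fold, lower in the exposed library, where 1.07% of 7128 genes were lower. Its log2 ratio was -0.73, and not past 1.5-fold in thinned cells (-0.44, from 10 and 29 UMIs) or as a mean over cells (-0.55). Cxcl10 had 28 UMIs in 6 exposed and 16 UMIs in 7 control cells of the class. A single cell held 16 of the 26 UMIs in the exposed cluster of 174 cells, and 6 of the 15 in the control cluster of 471. Cells of all clusters with proximal tubule markers had Cxcl10 at 25.5 CPM in the exposed and 7.63 CPM in the control library (69 and 32 UMIs). The ratio was 3.34 (2.17 to 5.26). Of these marker cells, 81 exposed and 99 control cells lay in the nephrogenic class. The part of those cells, and of single cells, in the ratio was not tested, and no share over all genes was computed for this group. In podocytes Cxcl12 was the only gene with at least 50 UMIs and was not past 1.5-fold, where 2.7% of 4960 genes were past it in either direction. Cxcl10 in podocytes had 2 UMIs in the exposed and 42 in the control library, of which a single cell held 33.

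How many cells carry a gene set how far its level can be read. The 5 cells with most UMIs held 66.7% of all Ccl2 UMIs in the exposed and 39.9% in the control library, and 50% of them lay in 2 exposed and 8 control cells. For Cxcl2 the 5 cells held 27.6% and 27.9%, and for Cxcl10 21.9% and 24.2%. Cxcl12, Cxcl14, Cxcr4 and Vcam1 were spread more widely, with 4.80% to 10.4% in the exposed and 5.30% to 7.01% in the control library. Cxcl1 held 12.0% and 9.02% in its 5 highest cells. All 5 of the highest Cxcl2 cells were macrophages in each library, as were all 5 of the exposed and 4 of the control Ccl2 cells. Of the 5 highest Cxcl2 cells in the exposed library 2 had an authors' doublet score over 1, and of the Ccl2 cells none had in either library.

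**Figure D4:**
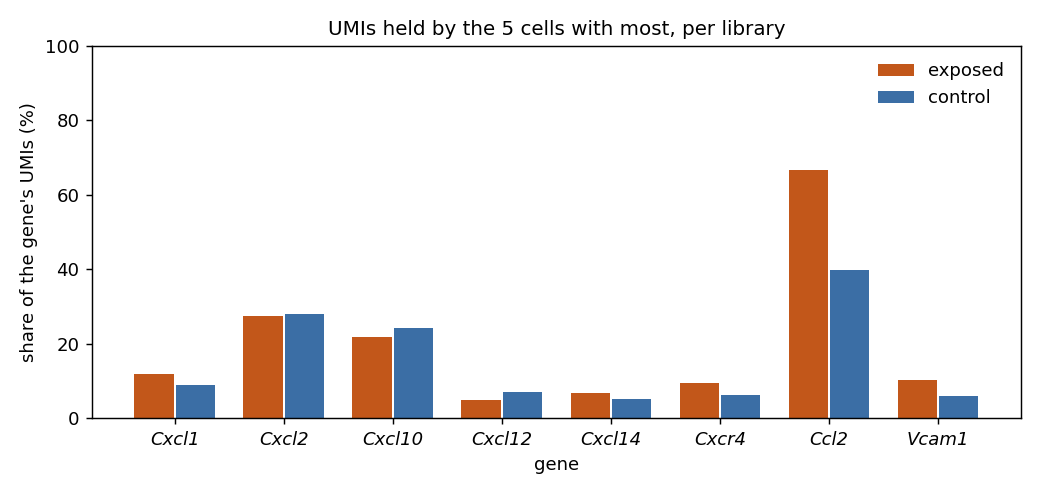
Bars give the share of the UMIs of a gene (y axis, percent) that lies in the 5 cells with most of them, for each of the 8 genes (x axis), with the exposed library left of the control library. Ccl2 stands apart at 66.7% and 39.9%, and Cxcl12 lies at 4.80% and 7.01%.

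Cxcl1, Cxcl2 and Cxcl10, whose upstream stretches are shown above, were read in the same nephrogenic cells more often than in the class at large, in values that share the depth of the cell. Of the 93 exposed nephrogenic cells with a Cxcl1 UMI, 17.2% also held Cxcl2 and 20.4% held Cxcl10, against 1.63% and 4.02% of all cells of the class. Of the 160 control cells with Cxcl1, 21.9% held Cxcl2 and 28.1% held Cxcl10, against 1.53% and 3.81% of the class. Cells with Cxcl1 had a median of 6818 UMIs in the exposed and 5249 in the control library, above the class medians of 5433 and 4347. After thinning to 2000 UMIs, 9.80% and 18.5% of Cxcl1 cells held Cxcl2, against 0.91% and 0.98% of the class. Vcam1 was read with Cxcl1 too, in 21.5% of the exposed and 14.4% of the control Cxcl1 cells, against 6.42% and 3.66%. In macrophages 13 of the 19 exposed and 5 of the 14 control cells with Cxcl10 held Cxcl2, which is 68.4% and 35.7%, against 32.5% and 20.4% of the class. In endothelium 12.5% of the exposed and 22.6% of the control Cxcl12 cells also held the receptor Cxcr4, against 5.70% and 6.90% of the class.

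Genes of the same pathways, the 8 genes included where they belong, were read from lists compiled for this purpose. In macrophages, where 7.23% of all genes tested were higher and 3.35% lower, of 13 chemokine ligands with at least 50 UMIs 4 were past 1.5-fold and higher in the exposed library, none was lower, and the median log2 ratio was 0.32, beside 0.05 over all genes tested. The 4 were Cxcl1, Cxcl2 and Ccl2, described above, and Ccl4. Ccl4, an inflammatory chemokine, was at 2082 CPM in the exposed and 1281 CPM in the control class, and 5 cells held 63.6% of its UMIs in the exposed and 44.8% in the control library. Of 11 NF-kappaB response genes 4 were higher and none lower, with a median of 0.46. They were Tnfaip3 (206 CPM exposed, 89.0 CPM control), Tnf (201 and 97.7 CPM), Icam1 (210 and 97.7 CPM) and Nfkbiz (245 and 143 CPM). Il1b was at 1050 and 1218 CPM. Of 9 interferon-induced genes 6 were higher and none lower, with a median of 0.95, among them Ifit3 (130 CPM exposed, 34.7 CPM control), Oasl2 (142 and 39.1 CPM) and H2-K1 (1326 and 597 CPM). Adhesion molecules had 3 of 8 higher (Vcam1, Icam1 and Itga6) and none lower, with a median of 0.03, and of 5 chemokine receptors Ccr2 was lower and none higher, with a median of -0.02.

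Outside macrophages fewer list genes were past 1.5-fold. Over all cells none of 19 chemokine ligands, 6 receptors, 17 adhesion molecules or 12 NF-kappaB response genes was past 1.5-fold. Of 9 interferon-induced genes Isg15 (20.7 CPM exposed, 5.84 CPM control) and Bst2 (116 and 73.7 CPM) were higher, where 0.0672% of all genes tested were, with a median log2 ratio of 0.31 beside 0.04 over all genes. In endothelium 3 of 9 interferon-induced genes were higher, where 0.541% of all genes tested were: Isg15 (150 CPM exposed, 49.9 CPM control), Ifit3 (28.3 and 6.28 CPM) and Oasl2 (44.6 and 22.4 CPM). In stroma 2 of 8 were higher, against 0.165% of all genes tested, in the nephrogenic class none of 8, and in podocytes 2 of 4 were lower, against 1.67%. Among the chemokine ligands of endothelium 1 of 5 was lower, which was Cxcl12, and none of its 10 NF-kappaB response genes was past 1.5-fold.

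The levels of each gene were set beside those of 8844 other genes over the 20 clusters of both libraries, by Pearson's correlation of log2(CPM + 10). These clusters share libraries and depth, so the values are a description. Pls3 (r = 0.98), Tjp1 (0.96) and Armcx1 (0.96) were most like Cxcl12. Trf (0.99), Coro1a and Lst1 (0.98 each) were most like Cxcl2, and Slc11a1 and Ccl7 (0.99 each) and Trem2 (0.98) most like Ccl2. Cd302 (0.96), Lgals1 (0.94) and Basp1 (0.93) followed Cxcl1, and Cd52 (0.94), Tnfaip3 and Asprv1 (0.93 each) followed Cxcl10. Kif26b (0.95), Fbn2 (0.94) and Lppr3 (0.91) were most like Cxcl14, and Tor3a (0.95) and Rgs2 (0.94) most like Cxcr4. Vcam1 was nearest to Cxcl16 (0.92), Myo5a (0.91) and G0s2 (0.90).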

How the data were processed

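Droplet 3' single-cell RNA sequencing of whole kidney was processed, per the submitters' processing notes, with Cell Ranger 2.2.0 on mm10. For each library the authors deposited raw UMI counts and a table of cells that holds, per the file headers, the percent of mitochondrial UMIs, a doublet score made by the authors and cluster numbers. The 8 genes, the gene lists and the markers were chosen with earlier results of these data known. Gene symbols, in lower case in the files, are printed in the usual mouse form, and all cells were kept.

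Clusters were named where at least 3 markers were found in at least 10% of cells at 2 times the level of other cells or more. UMIs were summed per class and scaled to 1000000 over the 8930 shared genes, which hold 99.4% of the UMIs of each library, with numpy 2.4.6 and scipy 1.17.1 in Python 3.11.15. A gene was called past 1.5-fold with 10 CPM added to both libraries and at least 50 UMIs in all. Intervals are exact Poisson for levels, Clopper-Pearson for shares and conditional binomial for ratios, at 95%, and leave out spread between cells. For a count of 0, 3 counts set the upper limit. Thinning to 2000 UMIs left out 529 exposed and 1484 control cells. Doublets were not removed: 277 exposed and 584 control cells had an authors' hybrid score over 1 and were left out as an alternative. The rule was tried on simulated Poisson counts over all cells, with 2-fold changes in genes of at least 50 CPM, and the intervals on Poisson counts. Of the 8 genes only Cxcl12 reached that level over all cells. Such counts carry no spread between cells, so they do not check the calls made here. Named genes are the 8, their partners, and list genes among the 5 highest of a list or past 1.5-fold with an interval that excludes 1, plus the 3 most alike, of which 1 is not reported here. Cxcr2, Cxcr3 and the authors' log values were not analysed here. Coordinates of genes are from GENCODE vM21.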

Additional observations from a re-analysis of the deposited data

How the results depend on the processing

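No paired analysis was possible because each group has 1 library. Of 218 recomputed values, 185 stayed within counting error or within 1.5 times the main count, 31 moved further and 2 values past 1.5-fold reversed; leaving out cells over 25% mitochondrial UMIs, or scaling over all listed genes, moved none. All values here are log2 ratios of exposed over control unless counted. Without the 5 cells of each library with most UMIs of the gene, macrophage Ccl2 was -0.44 (0.74 with them) and macrophage Cxcl1 -0.16 (1.33 with them; 2 of the 5 exposed and 0 of the 5 control cells were macrophages), and Ccl2 over all cells was -0.15 (0.27). Over all cells, thinning to 2000 UMIs gave -0.23 for Cxcl1 (-0.01 unthinned), 0.28 for Cxcl12 (-0.04) and 0.66 for Cxcl2 (0.48), and equal weight per cell gave -0.22 for Cxcl1, 0.075 for Cxcl10 (0.32) and 0.12 for Cxcl12. With 1 CPM added, Cxcl2 over all cells was 0.68, and 1 of the 8 genes was past 1.5-fold there, as was 1 in thinned cells, against 0 with 10 CPM and full depth. With at least 200 UMIs required in macrophages, 2 of the 8 genes, 0 NF-kappaB response genes, 0 adhesion molecules and 2 interferon-induced genes were past 1.5-fold and higher, against 4, 4, 3 and 6 with 50, since fewer genes were then tested. Macrophage Cxcl10 was 1.62 in thinned cells and 1.33 without the 5 highest cells of each library, of which 2 in each were macrophages, but -0.026 as a mean over cells, against 0.32, and nephrogenic Vcam1 was 0.95 with 1 CPM added, against 0.60. The sign differed from the main value in 10 log2 ratios in all. Of these, 5 stayed within counting error: Cxcl10 in macrophages as above, Cxcr4 over all cells without doublets (0.043) and nephrogenic Cxcl14 by marker calls (-0.035, and -0.11 with 3 UMIs) and without cells high in mitochondrial UMIs (-0.041). Other causes were not tested. Depth limits the macrophage class (117 and 181 cells) most, and classes by single-cell markers left 1062 exposed and 1786 control cells near a boundary.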
